A study of Mus musculus with 15 samples.

Results

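The interferon response genes described here are 46 genes that cells switch on after type I or type II interferon. They were listed by name from what is known of the response. The rule uses no measured value, but the list was chosen with earlier results of these data known. All 46 were matched to 1 gene ID each among the 55471 of the count table. Of these, 42 had a level above 1 CPM (the count of a gene relative to the scaled total of its library) in at least 3 of the 15 libraries and were among the 16171 genes tested. The other four, *Zbp1*, *Oas1a*, *Usp18* and *Ifi44*, are given as levels. Each library is whole hippocampus of a 3-month-old female mouse, with 3 libraries in each of 5 groups. Batch 1 holds wild-type mice (WT), mice homozygous for the *App* knock-in (genotype AppNL-G-F/NL-G-F, called APP-TKI) and double mutants with the same *App* genotype that also carry Apoe4+/wt (called DM). Batch 2 holds a second set of WT mice and mice with 1 copy of *APOE4* (ApoE4+/wt, called ApoE4). The *App* knock-in puts a humanised amyloid-beta sequence with disease mutations into the mouse gene, the *APOE4* knock-in replaces mouse coding sequence by that of human *APOE4* in 1 of the alleles, and DM mice came from crossing both lines. WT mice were of the C57BL/6JInv strain. DM and ApoE4 mice thus keep a mouse *Apoe* allele, and no group is homozygous for *APOE4*. In the count table human and mouse *APOE* are summed in 1 row, so that the counts cannot check the *APOE4* genotype.

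Interferons are secreted proteins that bind receptors on the same or neighbouring cells. Type I interferons signal through JAK kinases to a complex that holds STAT2 and IRF9 and binds an interferon-stimulated response element in the promoters of target genes, and type II interferon acts through a gamma-activated sequence. The products of the target genes sense foreign nucleic acids, block translation of viral RNA, tag proteins with ISG15, restrict virus entry, attack the vacuoles of intracellular pathogens and trim peptides for antigen presentation. In the brain, microglia, endothelial cells and astrocytes can all raise these genes, and an interferon-responsive state of microglia is known in ageing and in mouse models of amyloid deposition.

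Promoter sequence is shown first for the IFIT genes that hold a match and for 5 genes of other roles, because it carries the element through which type I interferon acts. A promoter of 250 bases before to 50 bases after the start site was found in RefSeq (GRCm38.p6) for 39 of the 46 genes. The core of the response element was searched on both strands as GAAA, any 2 bases and GAAA, and a match on the other strand reads TTTC, any 2 bases and TTTC. It was present in 21 of the 39 promoters (53.8%) and in 1079 of all 27025 gene promoters (3.99%). The core of the gamma-activated sequence, TTCNNNGAA, was present in 12 of the 39 (30.8%) and in 2582 of all (9.55%). Both patterns were found in 7 of the 39 promoters, neither in 13, and both patterns can share bases. Below are the sequences before the first annotated start of the IFIT genes that hold a match, at chr19:34640639-34640870 for *Ifit1*, chr19:34583279-34583528 for *Ifit3* and chr19:34607707-34607956 for *Ifit3b*, all on the plus strand. Stretches around the match follow for *Gbp2* (chr3:142620594-142620623, plus strand), *Gbp3* (chr3:142559992-142560021, plus strand), *Ddx58* (chr4:40239804-40239833, minus strand), *Isg15* (chr4:156200868-156200903, minus strand) and *Stat2* (chr10:128270266-128270295, plus strand). All are written 5′ to 3′ on the strand of the gene, and capitals mark the matches.
Ifit1: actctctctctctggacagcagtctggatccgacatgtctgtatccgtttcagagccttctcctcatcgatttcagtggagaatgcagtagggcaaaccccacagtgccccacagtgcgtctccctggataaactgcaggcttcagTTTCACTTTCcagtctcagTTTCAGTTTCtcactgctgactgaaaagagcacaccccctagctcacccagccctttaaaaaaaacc
Ifit3: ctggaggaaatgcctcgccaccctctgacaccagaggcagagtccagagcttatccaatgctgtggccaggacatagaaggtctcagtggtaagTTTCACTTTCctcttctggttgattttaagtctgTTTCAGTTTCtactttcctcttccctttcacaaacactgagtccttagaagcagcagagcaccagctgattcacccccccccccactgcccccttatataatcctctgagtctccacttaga
Ifit3b: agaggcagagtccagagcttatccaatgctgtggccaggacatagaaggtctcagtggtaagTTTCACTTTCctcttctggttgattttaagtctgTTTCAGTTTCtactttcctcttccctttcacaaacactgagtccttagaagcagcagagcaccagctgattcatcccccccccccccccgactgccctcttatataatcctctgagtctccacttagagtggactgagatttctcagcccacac
Gbp2: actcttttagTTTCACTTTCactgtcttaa
Gbp3: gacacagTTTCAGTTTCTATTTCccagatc
Ddx58: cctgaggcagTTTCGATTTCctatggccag
Isg15: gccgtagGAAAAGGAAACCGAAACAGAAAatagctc
Stat2: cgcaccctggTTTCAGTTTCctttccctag

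*Ifit1*, *Ifit3* and *Ifit3b* each held 2 matches to the response element. Distances here are counted from the RefSeq start site, which for *Ifit1* lies downstream of the annotated start where the printed stretch ends. In *Ifit1* the matches began 104 and 85 bases before the RefSeq start, in *Ifit3* 156 and 122 bases before it. In *Ifit3b*, a near copy of *Ifit3*, they began 188 and 154 bases before it. *Isg15* held 3 overlapping matches and *Gbp3* held 2, and the match of *Ddx58* began 2 bases after its start. The *Ifit2* window held no match to the response element but held TTCNNNGAA. Many of the genes are neighbours: *Ifit2*, *Ifit3*, *Ifit3b* and *Ifit1* lie within chr19:34550694-34650009, *Gbp7*, *Gbp3* and *Gbp2* within chr3:142530342-142638008, *Parp14*, *Dtx3l* and *Parp9* within chr16:35832874-35972605, and *Rsad2* and *Cmpk2* within chr12:26442746-26479837 (GENCODE, GRCm38).

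Total counts ran from 32754717 to 44630808 a library, so that 3 counts were worth 0.067 to 0.0925 CPM. Neuron markers summed to 4640 to 5460 CPM and astrocyte markers to 5220 to 6060 CPM. Choroid plexus markers reached 1600 CPM in a WT and 1910 CPM in an ApoE4 library of batch 2, against at most 74.7 CPM in batch 1. The share of counts in long noncoding genes was 2.16% to 2.88% in batch 1 and 1.66% to 1.83% in batch 2, and was above 2.5% in WT 1, APP-TKI 1, APP-TKI 2 and DM 1. According to the methods, the batches were collected and sequenced apart, and the study counts mice per genotype. The labels give only replicate numbers, and p-values measure the spread between these libraries.

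None of the 42 genes passed the test in any comparison (edgeR quasi-likelihood, adjusted p under 0.1 over all tested genes). Their levels nevertheless leaned to opposite sides in DM and ApoE4 mice. In DM mice 36 of 42 were higher than in WT of the same batch, and 32 of 42 were higher than in APP-TKI. In ApoE4 mice 36 of 42 were lower than in WT of the same batch. APP-TKI mice were split evenly, with 22 genes higher and 20 lower. In ApoE4 against WT and in the difference between both effects of *APOE4*, the genes of the 42 with the smallest p were *Ifit1*, *Ifit3* and *Ifit2*, whose products bind foreign RNA. The smallest p was that of *Lgals9* in DM against WT, *Xaf1* in APP-TKI against WT and *Ifitm3* in DM against APP-TKI. For *Ifit1*, *Ifit2* and *Ifit3* the libraries did not overlap in DM against APP-TKI or in ApoE4 against WT.

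**Figure D1:**
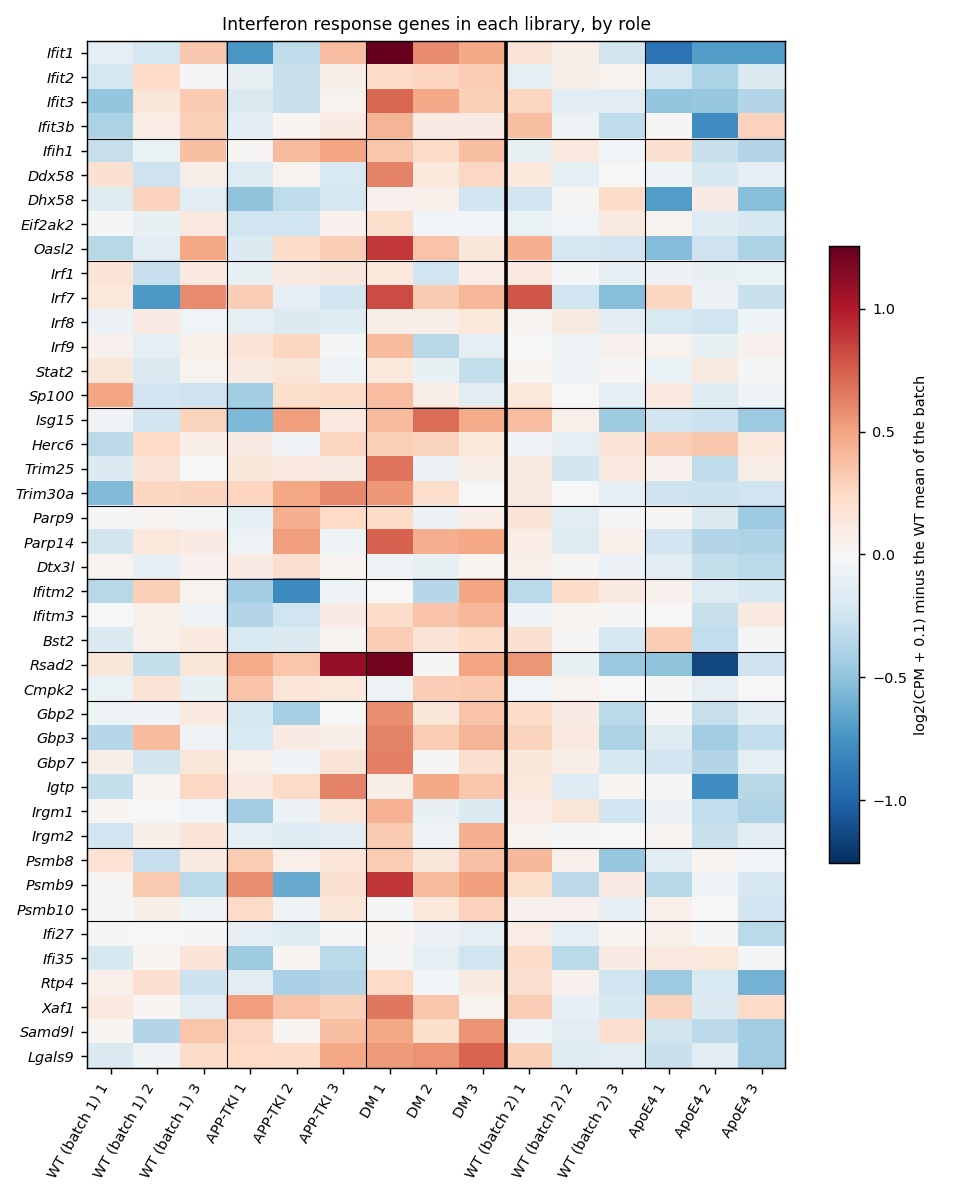
Heat map of the 42 tested genes (rows, ordered by role, with lines between roles) in the 15 libraries (columns; the thick line parts the batches). Colour is log2(CPM + 0.1) minus the mean of the WT libraries of the same batch, red for higher and blue for lower; most rows are red in DM, and most are blue in ApoE4 libraries 2 and 3.

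In DM against WT, the median log2 fold change of the 42 genes was 0.26, against 0.012 over all tested genes, and 85.7% of the 42 were higher against 54.9% of all. Calls were rare in the whole table, at 2 of 16171 genes (0.0124%), and none of the 42 was among them. At an unadjusted p under 0.05 there were 6 of the 42 (14.3%), all higher in DM, beside 4.55% of all genes (3.69% higher). For 8 of the 42 (19%) every DM library was above every WT library, beside 7.29% of all genes. The robust likelihood ratio test of edgeR called 1 of the 42, *Lgals9*, and 0.841% of all genes. The Wald test of DESeq2 called none of the 42 and 0.309% of all genes, and counted 4 of the 42 under an unadjusted 0.05. For tests other than the main one, the share of all genes at that unadjusted p was not counted. Without WT 1 the count at an unadjusted p under 0.05 was 2, and without DM 1 it was 3.

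In APP-TKI against WT, the median was 0.048 beside 0.013 over all genes, of which 55.5% were higher. Of all genes 0.00618% were called, and 0 of the 42. Only 1 gene, *Xaf1*, had an unadjusted p under 0.05 (2.38%, beside 3.56% of all genes). By the robust likelihood ratio test there was 1 such gene and by DESeq2 0. Neither called a member, beside 0.309% and 0.155% of all genes called. The count of the main test was 0 without APP-TKI 1, APP-TKI 2 or DM 2, and 2 without WT 1, WT 3 or DM 1. In 3 genes (7.14%) every APP-TKI library was above every WT library, and in 2 (4.76%) below, beside 4.71% and 3.56% of all genes. The 3 groups of batch 1 share their control libraries, so that both sets of values are to be read side by side.

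DM was then set against APP-TKI, which asks what 1 copy of *APOE4* adds on the *App* knock-in background. The median was 0.22 beside 0.001 over all genes, and 76.2% of the 42 were higher beside 50.4% of all. No gene of the table was called by the main test (0%). An unadjusted p under 0.05 was found for 7 of the 42 (16.7%), all higher in DM, beside 3.78% of all genes (2.83% higher). In 13 genes (31%) every DM library was above every APP-TKI library, beside 5.03% of all genes, and in 1 (2.38%), *Dtx3l*, every DM library was below, beside 2.9%. Without DM 1 the median was 0.11. Without the 4 libraries of batch 1 that held more long noncoding counts it was 0.087, with 23 of 42 genes higher and 1 at an unadjusted p under 0.05. The robust likelihood ratio test counted 9 and DESeq2 7 at an unadjusted p under 0.05. Neither called a member, beside 0.328% and 0.114% of all genes called. Without any filter on low counts the quasi-likelihood test called *Ifit1* and *Ifit3* (edgeR adjusted p = 0.0317 and 0.0279). How many of all genes that setting called was not counted, so that these calls have no share to be set beside.

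ApoE4 against WT in batch 2 asks the same of 1 copy of *APOE4* without the *App* mutations. The median was -0.15 beside -0.011 over all genes, and 14.3% of the 42 were higher beside 45.9% of all, whereas 54.1% of all were lower. Again no gene of the table was called (0%). There were 6 genes at an unadjusted p under 0.05 (14.3%), all lower in ApoE4, beside 5.99% of all genes (2.76% lower). In 8 genes (19%) every ApoE4 library was below every WT library, beside 6.79% of all genes. The robust likelihood ratio test called *Ifit1* and 0.773% of all genes, and had 2 of the 42 at an unadjusted p under 0.05. DESeq2 called none of the 42 and 0.297% of all genes, and had 3 of the 42 at an unadjusted p under 0.05. The count was 3 without ApoE4 3, 3 without WT 1 and 10 without WT 3.

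**Figure D2:**
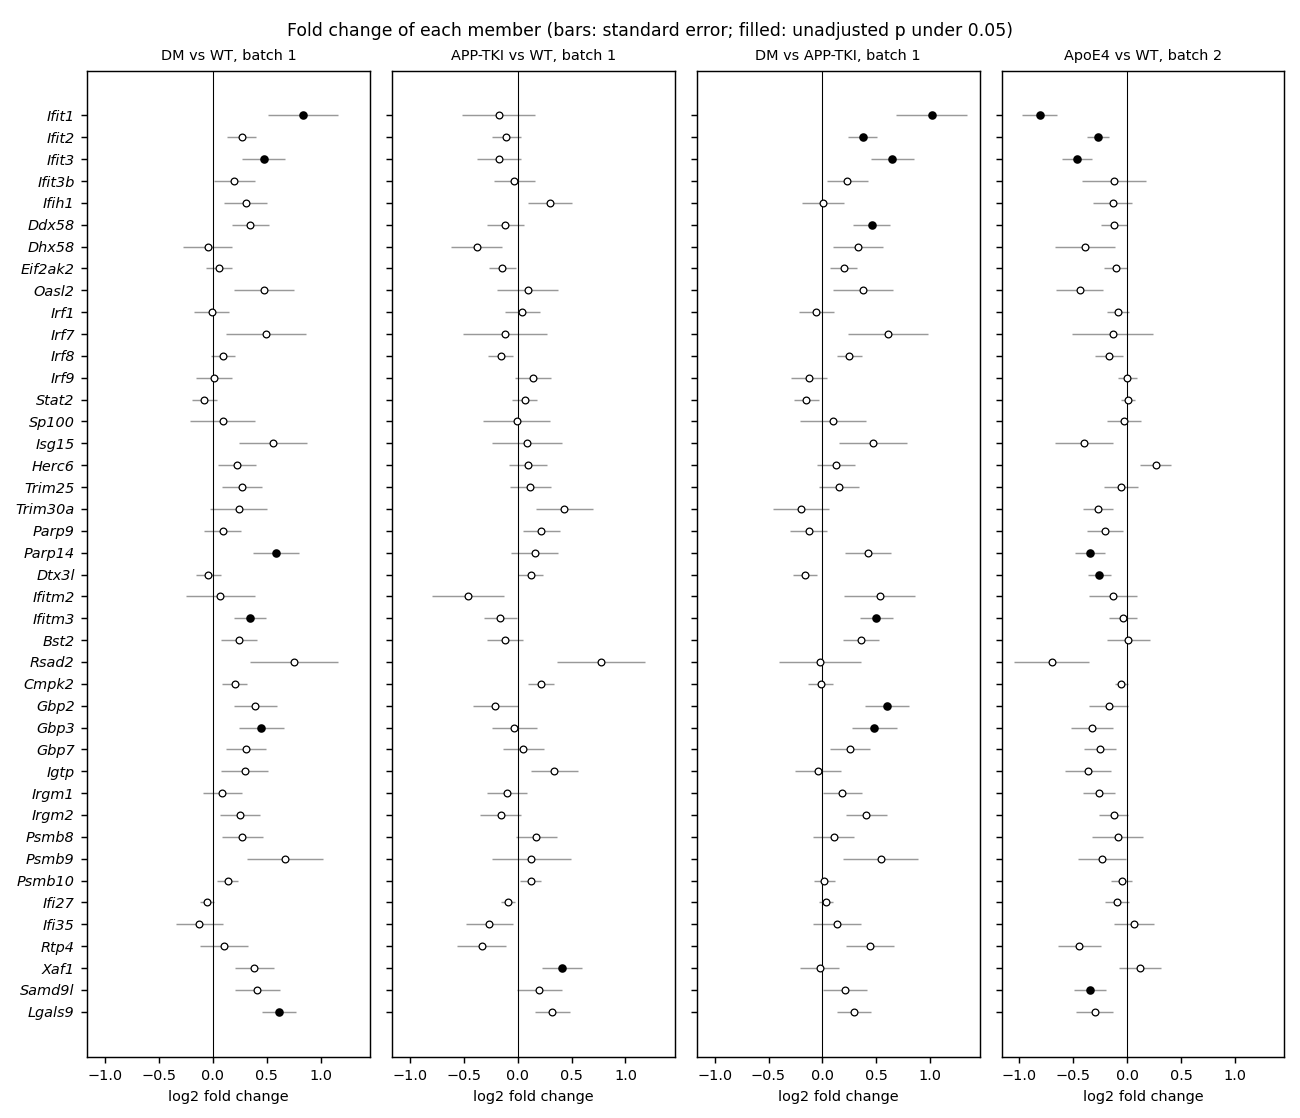
Log2 fold change (x axis) of each of the 42 tested genes (y axis, ordered by role) in the 4 comparisons within a batch, with bars of 1 standard error. Filled points have an unadjusted p under 0.05: 6 in DM against WT, 1 in APP-TKI against WT, 7 in DM against APP-TKI, all to the right of 0, and 6 in ApoE4 against WT, all to the left.

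The difference between both effects of *APOE4*, with *App* mutations (DM minus APP-TKI) and without (ApoE4 minus WT), was tested in 1 fit of all libraries, where a shift common to a batch cancels. It was above 0 in 38 of the 42 genes (90.5%, beside 52.6% of all), with a median of 0.43 beside 0.012. No gene of the table was called (0%), but 13 of the 42 (31%) had an unadjusted p under 0.05, all above 0, beside 6.85% of all genes (4.06% above 0). The robust likelihood ratio test called *Ifit1*, *Ifit2* and *Ifit3* and 0.748% of all genes, and DESeq2 called *Ifit1* and *Ifit3* and 0.161% of all genes. These 2 effects of *APOE4* share no library. Higher in DM and lower in ApoE4 were 29 of the 42 genes (69%), beside 31.1% of all, while 3 were lower and then higher, 3 higher in both and 7 lower in both.

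**Figure D3:**
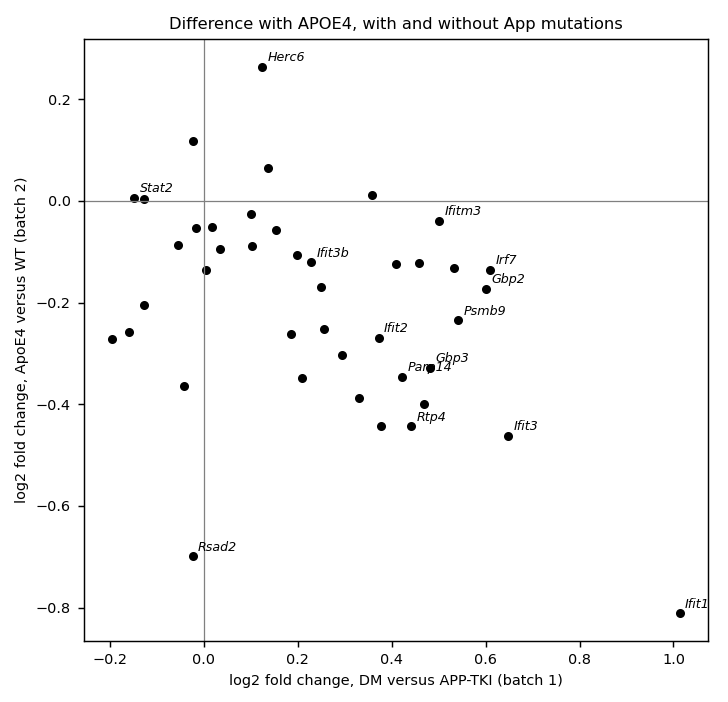
Log2 fold change of the 42 genes in DM against APP-TKI (x axis) and in ApoE4 against WT (y axis), 2 comparisons with no library in common. Most points, 29, lie at the lower right, with *Ifit1* farthest out at 1.01 and -0.81.

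Interferons themselves were at the edge of detection. Of 19 ligand genes (the type I family, *Ifng* and the type III genes), 14 had no count in any library, the other 5 had at most 1 count in a library, and all 19 together had 0 to 2 counts a library. A count of 0 allows up to 3 counts, or 0.067 to 0.0925 CPM. The ligands are secreted and act at low amounts, and their difference between the groups was not detectable at this depth. *Ifnar1* and *Ifnar2*, the chains of the type I receptor, had log2 fold changes from -0.125 to 0.18 in the within-batch comparisons. Those of *Ifngr1* and *Ifngr2*, the chains of the type II receptor, ran from -0.17 to 0.058, and none of the 4 was called (edgeR), with 0 at an unadjusted p under 0.05.

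Upstream of the ligands, 13 of 13 genes that induce interferon (toll-like receptors, the DNA sensor gene *Mb21d1*, *Tmem173*, *Mavs* and the adaptors, kinases and IRFs below them) were tested, and 0 were called in any comparison. The median log2 fold changes were -0.029 in DM and -0.007 in APP-TKI against WT, -0.027 in DM against APP-TKI and -0.014 in ApoE4 against WT. Only *Tlr7*, a sensor of single-stranded RNA in endosomes, had an unadjusted p under 0.05, in ApoE4 against WT, at 0.33 ± 0.13 (SE) (edgeR adjusted p = 0.761). Of the negative regulators, 8 of 10 were tested and 0 called. Their medians were 0.014 in DM and 0.015 in APP-TKI against WT, -0.023 in DM against APP-TKI and 0.073 in ApoE4 against WT. Higher were 6 of the 8 in APP-TKI against WT and 6 in ApoE4 against WT. In each of these 2 comparisons 1 higher and 1 lower gene had an unadjusted p under 0.05. *Adar*, which edits double-stranded RNA so that it is not sensed, was lower by small amounts in both *App* mutant groups, at -0.20 ± 0.054 (SE) in DM and -0.18 ± 0.054 (SE) in APP-TKI against WT, without overlap of the libraries (edgeR adjusted p = 0.535 and 1). *Socs3*, an inhibitor of JAK signalling, was at -0.90 ± 0.32 (SE) in ApoE4 against WT with overlapping libraries (edgeR adjusted p = 0.761).

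Among the sensors of foreign nucleic acids, *Ddx58* encodes RIG-I, which recognises short double-stranded RNA with triphosphate ends. *Ddx58* was at 5.07, 3.67 and 4.65 CPM in WT, 3.96, 4.57 and 3.86 CPM in APP-TKI and 6.87, 4.85 and 5.3 CPM in DM. In batch 2, *Ddx58* was at 6.16, 5.16 and 5.59 CPM in WT and 5.43, 4.89 and 5.2 CPM in ApoE4. DM libraries were above all APP-TKI libraries and above 2 of the WT libraries of their batch, DM 1 being the highest of all 15, and the groups of batch 2 overlapped. Its log2 fold change was 0.46 ± 0.17 (SE) in DM against APP-TKI (95% interval 0.085 to 0.83, edgeR adjusted p = 0.987) and -0.12 ± 0.12 (SE) in ApoE4 against WT.

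*Dhx58* encodes LGP2, a helicase that helps MDA5 and lacks a signalling domain of its own. *Dhx58* was at 1.22, 1.7 and 1.25 CPM in WT, 0.938, 1.08 and 1.17 CPM in APP-TKI and 1.43, 1.44 and 1.15 CPM in DM. In batch 2, *Dhx58* was at 0.987, 1.19 and 1.4 CPM in WT and 0.693, 1.28 and 0.789 CPM in ApoE4. All APP-TKI libraries lay below all WT libraries of their batch, at -0.38 ± 0.23 (SE) (edgeR adjusted p = 1), and DM overlapped with both. *Ifih1* (MDA5), *Eif2ak2* (PKR, a kinase that stops translation) and *Oasl2* were from 0.055 to 0.47 in DM against WT and from -0.44 to -0.11 in ApoE4 against WT, and every ApoE4 library of *Oasl2* was below every WT library of batch 2. *Zbp1*, a sensor of Z-form nucleic acids, had 0 to 12 counts a library, with 0.186 to 0.268 CPM in ApoE4 and 0.0267 to 0.156 CPM in WT of batch 2. *Oas1a*, which makes the signal that activates RNase L, had 4 to 26 counts, and neither was tested. *Oas1a* shares 40.9% of its 100-base stretches with *Oas1g*, so that its counts are uncertain as well.

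None of the 6 transcription factors and nuclear regulators had an unadjusted p under 0.05 in a within-batch comparison. *Stat2* was the most abundant of them per length of transcript, at 4.13 CPM per kb on average over all libraries. *Stat2* was at 27.7, 22.1 and 25.9 CPM in WT, 27.1, 28 and 24.2 CPM in APP-TKI and 27.5, 23.6 and 20.4 CPM in DM. In batch 2, *Stat2* was at 23.9, 22.7 and 23.6 CPM in WT and 22.1, 25.3 and 23.1 CPM in ApoE4. The groups overlapped in every comparison, and the log2 fold change of *Stat2* in DM against WT had a 95% interval of -0.34 to 0.17.

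*Irf9*, the DNA-binding partner of STAT2, was at 9.5, 8.39 and 9.52 CPM in WT, 10.2, 11 and 9 CPM in APP-TKI and 12, 7.15 and 8.42 CPM in DM. In batch 2, *Irf9* was at 9.92, 9.5 and 10.3 CPM in WT and 10.2, 9.29 and 10.3 CPM in ApoE4. The highest value, that of DM 1, and the lowest, that of DM 2, were in the same group, and the 95% interval in DM against WT was -0.36 to 0.38. *Irf7*, the factor that amplifies type I interferon production, was low. *Irf7* was at 0.641, 0.308 and 0.914 CPM in WT, 0.733, 0.527 and 0.472 CPM in APP-TKI and 1.09, 0.748 and 0.802 CPM in DM. In batch 2, *Irf7* was at 2.35, 1.09 and 0.885 CPM in WT and 1.61, 1.25 and 1.07 CPM in ApoE4. Every DM library was above every APP-TKI library, by a narrow margin, and WT libraries spread from 0.308 to 0.914 CPM in batch 1 and from 0.885 to 2.35 CPM in batch 2. *Irf7* was at 0.61 ± 0.37 (SE) in DM against APP-TKI (edgeR adjusted p = 0.987). *Irf8*, needed for the identity of microglia, was lower in every APP-TKI library than in all WT and DM libraries of the batch, at -0.155 against WT. In DM against APP-TKI *Irf8* was at 0.25 ± 0.12 (SE) (edgeR adjusted p = 0.987), and both effects of *APOE4* differed by 0.42 ± 0.16 (SE) (edgeR adjusted p = 0.705), the only value of this group with an unadjusted p under 0.05 (0.0195). *Irf1*, the factor induced most directly by type II interferon, was from -0.087 to 0.043 in the within-batch comparisons. *Sp100*, a component of nuclear bodies, was from -0.026 to 0.1.

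The IFIT genes encode proteins that bind viral RNA lacking the cap marks of the host and block its translation. *Ifit1*, which recognises the cap itself, stood out in every comparison with *APOE4*. *Ifit1* was at 1.25, 1.17 and 1.77 CPM in WT, 0.791, 1.08 and 1.83 CPM in APP-TKI and 3.42, 2.13 and 1.95 CPM in DM. In batch 2, *Ifit1* was at 3.71, 3.48 and 2.81 CPM in WT and 1.7, 2 and 2 CPM in ApoE4. All 3 DM libraries were above all 6 other libraries of batch 1, DM 1 by far the most, and all 3 ApoE4 libraries were below all WT libraries of batch 2. The log2 fold change was 0.84 ± 0.32 (SE) in DM against WT (95% interval 0.13 to 1.54, edgeR adjusted p = 0.946), -0.18 ± 0.34 (SE) in APP-TKI against WT (adjusted p = 1) and 1.01 ± 0.33 (SE) in DM against APP-TKI (adjusted p = 0.987). In ApoE4 against WT it was -0.81 ± 0.16 (SE) (95% interval -1.19 to -0.43, edgeR adjusted p = 0.669; 0.0583 by the robust likelihood ratio test). The effects of *APOE4* with and without *App* mutations differed by 1.82 ± 0.40 (SE) (95% interval 0.97 to 2.68, edgeR adjusted p = 0.51; 0.000917 by the robust likelihood ratio test and 0.0268 by DESeq2).

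*Ifit3*, whose human counterpart binds IFIT1 and strengthens its hold on RNA, followed the same order. *Ifit3* was at 3.44, 5.43 and 6.15 CPM in WT, 4.28, 3.99 and 5.03 CPM in APP-TKI and 8.06, 6.79 and 5.99 CPM in DM. In batch 2, *Ifit3* was at 9.34, 7.06 and 7.02 CPM in WT and 5.5, 5.52 and 5.99 CPM in ApoE4. DM was above APP-TKI in every library, DM 3 lay just under the highest WT library of batch 1, and ApoE4 was below WT in every library. Its log2 fold change was 0.47 ± 0.20 (SE) in DM against WT, 0.65 ± 0.20 (SE) in DM against APP-TKI and -0.46 ± 0.14 (SE) in ApoE4 against WT (edgeR adjusted p = 1, 0.987 and 0.761). Both effects of *APOE4* differed by 1.11 ± 0.27 (SE) (edgeR adjusted p = 0.557; 0.00684 by the robust likelihood ratio test and 0.0744 by DESeq2).

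*Ifit2*, which binds AU-rich RNA, was the steadiest of the 3. *Ifit2* was at 7.2, 10.1 and 8.25 CPM in WT, 7.88, 6.92 and 8.89 CPM in APP-TKI and 9.98, 10.2 and 10.5 CPM in DM. In batch 2, *Ifit2* was at 9.2, 10.6 and 10.4 CPM in WT and 8.6, 7.58 and 8.84 CPM in ApoE4. DM libraries differed among themselves by little and lay above all APP-TKI libraries, though WT 2 of batch 1 was between them, and ApoE4 libraries were below all WT libraries of batch 2. The log2 fold change was 0.37 ± 0.13 (SE) in DM against APP-TKI and -0.27 ± 0.10 (SE) in ApoE4 against WT (edgeR adjusted p = 0.987 and 0.761). These differed by 0.64 ± 0.18 (SE) (edgeR adjusted p = 0.607; 0.0788 by the robust likelihood ratio test).

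*Ifit3b* is a near copy of *Ifit3*. *Ifit3b* was at 2.77, 3.92 and 4.54 CPM in WT, 3.31, 3.72 and 3.94 CPM in APP-TKI and 4.98, 3.93 and 3.95 CPM in DM. In batch 2, *Ifit3b* was at 5.66, 4.14 and 3.43 CPM in WT and 4.36, 2.47 and 5.31 CPM in ApoE4. Its groups overlapped in every comparison, and the difference between both effects of *APOE4* was 0.35 ± 0.36 (SE) (95% interval -0.42 to 1.12). *Ifit3* shares 31.7% of its 100-base stretches with *Ifit3b*, and *Ifit3b* 27.4% with *Ifit3*, so that the split of reads between the copies is uncertain.

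**Figure D4:**
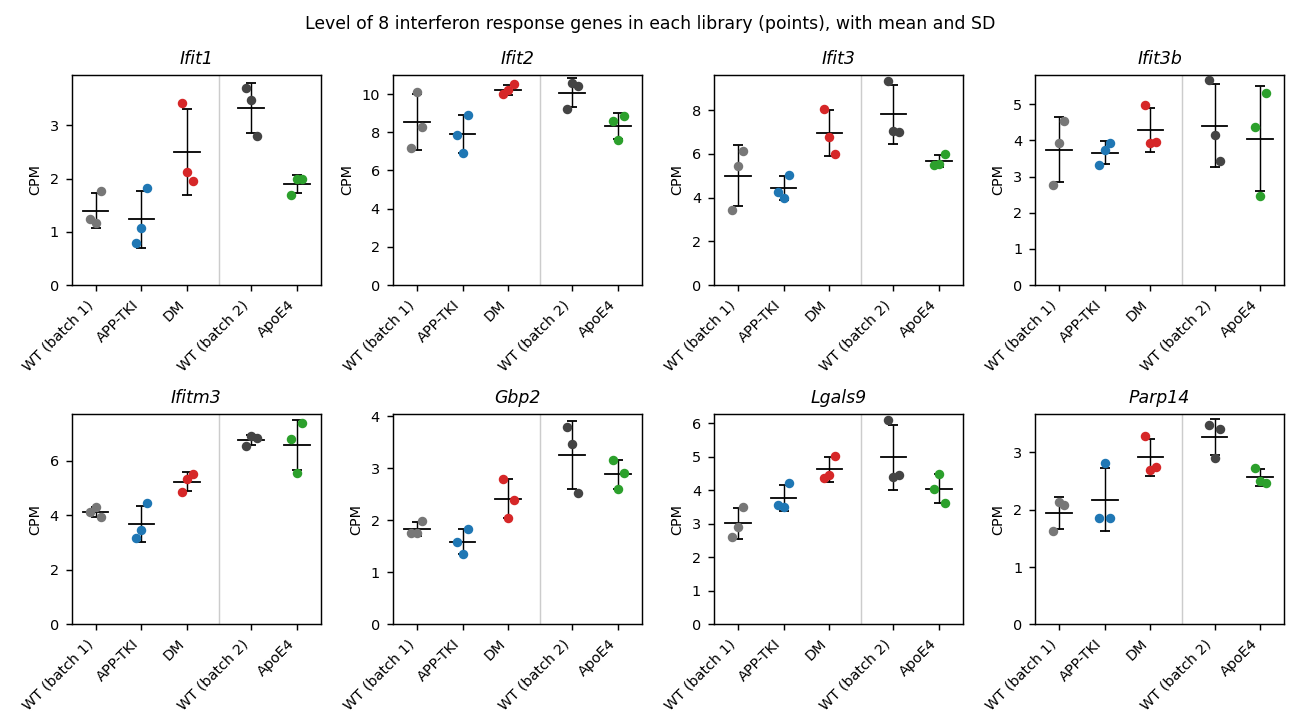
CPM (y axis, from 0) of 8 genes in each library, with 1 point a library, the mean of the 3 libraries of a group as a line and the SD as a bar; the grey line parts batch 1 from batch 2. For *Ifit1*, DM libraries lie at 1.95 to 3.42 CPM, above WT and APP-TKI of batch 1 and within the range of both groups of batch 2 (1.70 to 3.71 CPM).

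*Isg15* encodes a ubiquitin-like protein that is attached to newly made proteins. *Isg15* was at 0.757, 0.647 and 0.969 CPM in WT, 0.498, 1.17 and 0.861 CPM in APP-TKI and 1.06, 1.33 and 1.12 CPM in DM. In batch 2, *Isg15* was at 1.33, 1.04 and 0.702 CPM in WT and 0.827, 0.807 and 0.696 CPM in ApoE4. DM libraries were above all WT libraries but not above APP-TKI 2, and the log2 fold change against WT was 0.56 ± 0.31 (SE) (95% interval -0.13 to 1.24, edgeR adjusted p = 1). *Usp18*, which removes ISG15 and dampens the receptor, had 10 to 53 counts a library and was not tested: its CPM was 0.315 to 1.32 in DM and 0.32 to 0.914 in WT of the same batch. *Trim30a*, an E3 ligase of the TRIM family, was at 0.961, 1.79 and 1.8 CPM in WT, 1.79, 2.08 and 2.28 CPM in APP-TKI and 2.18, 1.72 and 1.46 CPM in DM. In batch 2, *Trim30a* was at 2.53, 2.34 and 2.16 CPM in WT and 1.94, 1.93 and 1.95 CPM in ApoE4. APP-TKI overlapped with WT, at 0.43 ± 0.27 (SE), WT 1 being the lowest of all 15 libraries, and every ApoE4 library was below every WT library of batch 2, at -0.27 ± 0.14 (SE) (edgeR adjusted p = 1 and 0.761). *Herc6*, the main ligase for ISG15 in mice, and *Trim25*, which acts on RIG-I, were from 0.1 to 0.27 in the 3 comparisons of batch 1 and at 0.26 and -0.057 in ApoE4 against WT.

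PARP9 and PARP14 add or bind ADP-ribose, and DTX3L is the ubiquitin ligase that partners with PARP9. *Parp14* was at 1.63, 2.13 and 2.08 CPM in WT, 1.85, 2.81 and 1.86 CPM in APP-TKI and 3.29, 2.69 and 2.75 CPM in DM. In batch 2, *Parp14* was at 3.47, 2.9 and 3.41 CPM in WT and 2.73, 2.5 and 2.46 CPM in ApoE4. DM libraries were above all WT libraries, APP-TKI 2 lay between the DM libraries, and ApoE4 libraries were below all WT libraries. Its log2 fold change was 0.58 ± 0.21 (SE) in DM against WT and -0.35 ± 0.14 (SE) in ApoE4 against WT (edgeR adjusted p = 0.914 and 0.761). *Dtx3l* was at 6.15, 5.55 and 6.2 CPM in WT, 6.42, 6.92 and 6.11 CPM in APP-TKI and 5.7, 5.6 and 6.1 CPM in DM. In batch 2, *Dtx3l* was at 7.12, 6.86 and 6.45 CPM in WT and 6.21, 5.52 and 5.36 CPM in ApoE4. Every ApoE4 library was below every WT library, at -0.26 ± 0.11 (SE), and every DM library was below every APP-TKI library, at -0.16 ± 0.11 (SE) (edgeR adjusted p = 0.761 and 0.987), so that *Dtx3l* was lower in both comparisons with *APOE4*. *Parp9*, which overlaps *Dtx3l* on the opposite strand, was at -0.13 in DM against APP-TKI and -0.205 in ApoE4 against WT, with overlapping groups.

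The IFITM proteins stiffen membranes so that viruses fuse less readily, and BST2 tethers virus particles to the cell surface. *Ifitm3* was at 4.14, 4.32 and 3.93 CPM in WT, 3.16, 3.46 and 4.44 CPM in APP-TKI and 4.85, 5.32 and 5.53 CPM in DM. In batch 2, *Ifitm3* was at 6.54, 6.91 and 6.84 CPM in WT and 6.79, 5.57 and 7.38 CPM in ApoE4. All DM libraries were above the 6 other libraries of batch 1, and both groups of batch 2 were above all of batch 1. The log2 fold change was 0.50 ± 0.15 (SE) in DM against APP-TKI (95% interval 0.17 to 0.83) and 0.34 ± 0.15 (SE) in DM against WT (edgeR adjusted p = 0.987 and 1), and -0.039 ± 0.13 (SE) in ApoE4 against WT (95% interval -0.34 to 0.26). *Bst2* was higher in every DM library than in all 6 other libraries of batch 1, at 0.24 against WT and 0.36 against APP-TKI, and at 0.012 in ApoE4 against WT. *Ifitm2* shares 34.9% of its 100-base stretches with other genes, so that its counts are uncertain. Its groups overlapped in every comparison, from -0.46 in APP-TKI against WT to 0.53 in DM against APP-TKI.

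*Rsad2* encodes viperin, which makes a nucleotide that ends viral RNA chains, from the product of its neighbour *Cmpk2*. *Rsad2* was at 0.495, 0.339 and 0.498 CPM in WT, 0.645, 0.586 and 1.06 CPM in APP-TKI and 1.14, 0.443 and 0.659 CPM in DM. In batch 2, *Rsad2* was at 2.16, 1.35 and 1.01 CPM in WT and 0.983, 0.599 and 1.18 CPM in ApoE4. APP-TKI libraries were above all WT libraries of batch 1, at 0.77 ± 0.41 (SE), and DM overlapped with both, at 0.75 ± 0.41 (SE) against WT (edgeR adjusted p = 1 and 1). *Cmpk2* was more abundant than *Rsad2*. *Cmpk2* was at 18, 21.4 and 17.9 CPM in WT, 24.5, 21.2 and 20.8 CPM in APP-TKI and 18.2, 23.7 and 23.9 CPM in DM. In batch 2, *Cmpk2* was at 20.2, 21.3 and 20.6 CPM in WT and 20.3, 19 and 20.6 CPM in ApoE4. Its groups overlapped, at 0.21 ± 0.12 (SE) in APP-TKI and 0.20 ± 0.12 (SE) in DM against WT (edgeR adjusted p = 1 and 1), and at -0.053 ± 0.062 (SE) in ApoE4 against WT. Per length of transcript *Cmpk2* stood at 4.99 and *Rsad2* at 0.202 CPM per kb on average over all libraries.

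The interferon-inducible GTPases coat and break vacuoles that hold pathogens, and are known for their strong answer to type II interferon. *Gbp2* was at 1.75, 1.76 and 1.99 CPM in WT, 1.58, 1.35 and 1.83 CPM in APP-TKI and 2.8, 2.05 and 2.38 CPM in DM. In batch 2, *Gbp2* was at 3.79, 3.46 and 2.52 CPM in WT and 3.15, 2.6 and 2.9 CPM in ApoE4. DM libraries were above the 6 other libraries of batch 1, and ApoE4 and WT overlapped. The log2 fold change of *Gbp2* was 0.60 ± 0.20 (SE) in DM against APP-TKI (95% interval 0.16 to 1.04) and 0.39 ± 0.20 (SE) in DM against WT (edgeR adjusted p = 0.987 and 1), and -0.17 ± 0.18 (SE) in ApoE4 against WT.

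*Gbp3* was at 1.92, 3.3 and 2.41 CPM in WT, 2.17, 2.67 and 2.61 CPM in APP-TKI and 3.89, 3.13 and 3.38 CPM in DM. In batch 2, *Gbp3* was at 4.96, 4.45 and 3.07 CPM in WT and 3.67, 2.99 and 3.27 CPM in ApoE4. DM libraries were above all APP-TKI libraries, whereas WT 2 lay between them. Its log2 fold change was 0.48 ± 0.21 (SE) in DM against APP-TKI, 0.45 ± 0.21 (SE) in DM against WT and -0.33 ± 0.20 (SE) in ApoE4 against WT (edgeR adjusted p = 0.987, 1 and 0.761). With *Gbp7*, *Igtp*, *Irgm1* and *Irgm2*, the 6 GTPases had a median of 0.3 in DM and -0.066 in APP-TKI against WT, 0.33 in DM against APP-TKI and -0.26 in ApoE4 against WT, where all 6 were lower. *Irgm2* was the third of them without overlap between DM and APP-TKI, at 0.41. In the difference between both effects of *APOE4* all 6 were above 0, from 0.32 to 0.81, and 3 had an unadjusted p under 0.05.

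The immunoproteasome subunits *Psmb8*, *Psmb9* and *Psmb10*, which replace the standard catalytic subunits and change the peptides cut, were higher in all 3 comparisons of batch 1 and lower in ApoE4 against WT. *Psmb9* had the largest value of the 3, at 0.67 in DM against WT without overlap of the libraries, from a level of 0.526 to 0.894 CPM in WT and 0.942 to 1.37 CPM in DM. No subunit had an unadjusted p under 0.05 in any comparison. *Psmb9* shares bases with *Tap1* on the opposite strand (5.79% of its exonic bases).

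Of the other effectors, *Lgals9* encodes galectin-9, a sugar-binding protein that microglia and endothelial cells release. *Lgals9* was at 2.62, 2.9 and 3.52 CPM in WT, 3.58, 3.52 and 4.22 CPM in APP-TKI and 4.38, 4.46 and 5.04 CPM in DM. In batch 2, *Lgals9* was at 6.11, 4.4 and 4.47 CPM in WT and 4.05, 4.48 and 3.62 CPM in ApoE4. In batch 1 every DM library was above every other library and every APP-TKI library was above every WT library, though the nearest of them were both at 3.52 CPM after rounding. In batch 2 ApoE4 and WT overlapped. Its log2 fold change was 0.62 ± 0.16 (SE) in DM against WT (95% interval 0.27 to 0.96, edgeR adjusted p = 0.516; 0.0576 by the robust likelihood ratio test), 0.32 ± 0.16 (SE) in APP-TKI against WT (adjusted p = 1) and -0.30 ± 0.17 (SE) in ApoE4 against WT (adjusted p = 0.761).

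*Xaf1*, which opposes an inhibitor of cell death, was at 2.91, 2.71 and 2.41 CPM in WT, 3.9, 3.46 and 3.31 CPM in APP-TKI and 4.28, 3.44 and 2.75 CPM in DM. In batch 2, *Xaf1* was at 4.14, 3.07 and 2.86 CPM in WT and 4.05, 2.92 and 3.94 CPM in ApoE4. APP-TKI libraries were above all WT libraries of batch 1 and DM overlapped with both, at 0.41 ± 0.18 (SE) and 0.38 ± 0.18 (SE) against WT (edgeR adjusted p = 1 and 1). *Samd9l*, a restriction factor that slows translation, was at 2.33, 1.76 and 2.94 CPM in WT, 2.75, 2.34 and 3 CPM in APP-TKI and 3.24, 2.69 and 3.44 CPM in DM. In batch 2, *Samd9l* was at 3.49, 3.3 and 4.27 CPM in WT and 3.11, 2.89 and 2.69 CPM in ApoE4. ApoE4 libraries were below all WT libraries, at -0.35 ± 0.15 (SE) (edgeR adjusted p = 0.761), and DM overlapped with WT, at 0.41 ± 0.21 (SE).

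*Ifi27*, a mitochondrial protein gene, had the highest level of all 46 per length of transcript, at 20.1 CPM per kb on average, and was from -0.094 to 0.034 in the within-batch comparisons. *Psmb10* came next with 12 and *Ifitm3* with 7.79 CPM per kb. *Rtp4*, a regulator of the response in mice, was at -0.34 in APP-TKI against WT, at 0.44 in DM against APP-TKI without overlap, and at -0.44 in ApoE4 against WT. *Ifi35* was from -0.26 to 0.14 in the within-batch comparisons. *Ifi44* had 3 to 27 counts a library, and its CPM was 0.364 to 0.72 in WT of batch 2 and at most 0.332 in batch 1.

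Promoters with a match to the response element belonged to 20 tested genes, and 17 tested genes had a promoter without one. The medians with and without a match were 0.31 and 0.22 in DM against WT, -0.066 and 0.12 in APP-TKI against WT, 0.32 and 0.12 in DM against APP-TKI, and -0.21 and -0.087 in ApoE4 against WT. For the difference between both effects of *APOE4* they were 0.54 and 0.13. These are medians of 2 lists whose genes share libraries, given without a test.

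A further 68 interferon-stimulated genes outside the 46 were listed from the same knowledge, and 33 were tested. Their medians leaned the same way by less, at 0.13 in DM and 0.037 in APP-TKI against WT, 0.12 in DM against APP-TKI and -0.13 in ApoE4 against WT. At an unadjusted p under 0.05 there were 10, 0, 8 and 1 of them, of which 9, 0, 7 and 0 were higher, and none was called (edgeR). *Lgals3bp*, a secreted glycoprotein gene, had the smallest p in DM against WT, at 0.44 ± 0.12 (SE), followed by *Slfn5* at 0.73 ± 0.25 (SE) and *Gbp9* at 0.63 ± 0.23 (SE) (edgeR adjusted p = 0.548, 0.828 and 0.914). *Gbp9*, another GTPase, had the smallest p in the difference between both effects of *APOE4*, at 1.39 ± 0.34 (SE) (edgeR adjusted p = 0.557). Not all went that way, and *Ifi203*, a DNA-binding protein gene, was at -0.65 ± 0.24 (SE) in DM against WT without overlap (edgeR adjusted p = 0.914). It was picked here after its value was seen.

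Taken by library, the number of the 42 genes above the mean of the batch was 11, 19 and 22 in WT, 13, 16 and 23 in APP-TKI, and 38, 28 and 29 in DM. In batch 2 it was 35, 29 and 25 in WT and 22, 10 and 9 in ApoE4. DM 1 thus had the most, and DM 2 and DM 3 still had more than any WT or APP-TKI library of batch 1, while WT 3 of batch 2 and ApoE4 1 were close. Without DM 1, the median in DM against APP-TKI was 0.11 in place of 0.22, and that of the difference between both effects of *APOE4* was 0.31 in place of 0.43. Without the 4 libraries of batch 1 that held more long noncoding counts, DM 1 among them, the medians were 0.14 in DM against WT, 0.087 in DM against APP-TKI and 0.21 for the difference, and 28, 23 and 30 of 42 genes were above 0.

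Endothelial and fibroblast markers leaned the same way as these genes in DM and in ApoE4 mice, which did not hold for all other cell markers. All 14 endothelial markers were higher in DM against WT (median 0.41, 8 at an unadjusted p under 0.05) and against APP-TKI (median 0.51), 4 of 14 were higher in APP-TKI against WT (median -0.083), and 2 of 14 were higher in ApoE4 against WT (median -0.105). Summed endothelial markers were 82.5 to 89.4 CPM in WT, 75.3 to 88.4 CPM in APP-TKI and 102 to 131 CPM in DM, and 169 to 201 CPM in WT and 142 to 187 CPM in ApoE4 of batch 2. No endothelial marker was at 0. The median of the difference between both effects of *APOE4* was 0.73 for them and 0.43 for the interferon response genes. Fewer cells of a type and less RNA per cell cannot be told apart in whole tissue, and the part of endothelial cells in the values above was not tested.

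Of 12 microglia markers, 8 were higher in DM and 10 in APP-TKI against WT (medians 0.081 and 0.12), 4 in DM against APP-TKI (median -0.018) and 3 in ApoE4 against WT (median -0.073). Their sum was 414 to 523 CPM over all libraries, with no marker at 0. Fibroblast markers, from meninges and vessels, had medians of 0.45, 0.23, 0.24 and -0.33 in the same 4 comparisons, and ependymal markers 1.1, 0.66, 0.55 and 0.56. Higher were 8 of 9 fibroblast markers in DM and 7 in APP-TKI against WT. In DM against APP-TKI 7 were higher, and in ApoE4 against WT 0. For the difference between both effects of *APOE4* the median was 0.545 for fibroblast and -0.032 for ependymal markers. T and NK cell markers summed to 0.0874 to 0.546 CPM and neutrophil and monocyte markers to 0.0583 to 0.425 CPM, except for T and NK cell markers at 9.68 CPM in 1 ApoE4 library. The part of microglia, fibroblasts and ependymal cells was not tested.

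**Figure D5:**
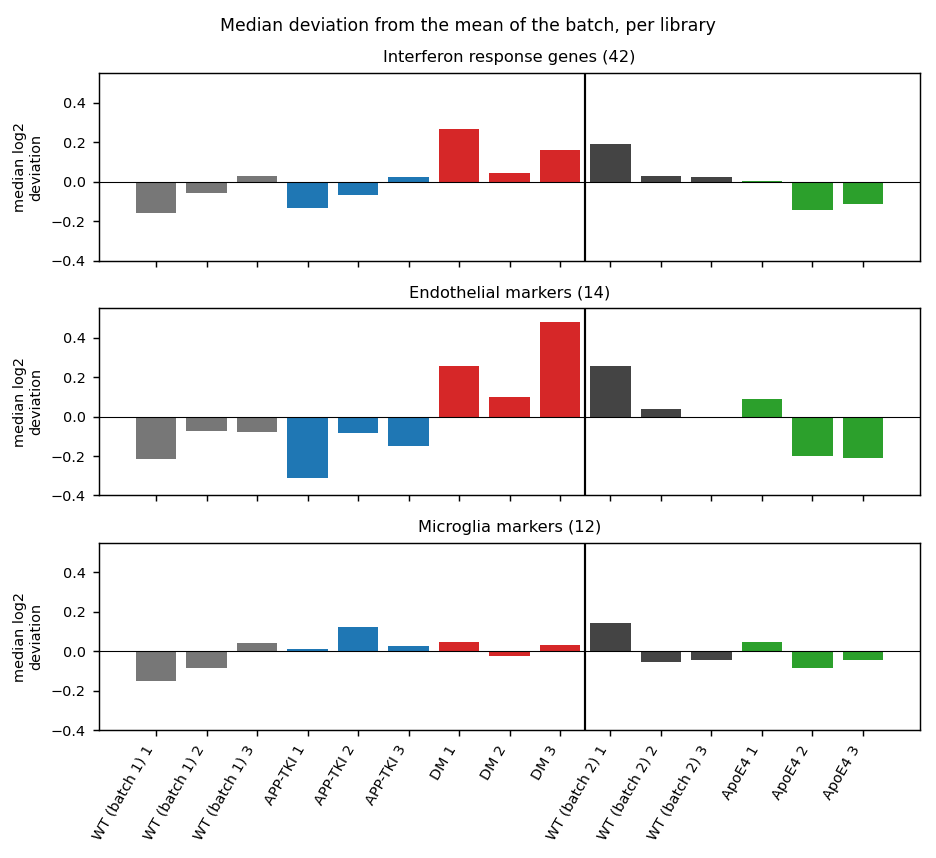
Median log2 deviation from the mean of the batch (y axis) in each library (x axis; the line parts the batches), for the 42 interferon response genes, 14 endothelial markers and 12 microglia markers. The 3 DM libraries are above 0 for the interferon response genes (0.046 to 0.27) and for endothelial markers (0.098 to 0.48), while microglia markers stay between -0.15 and 0.14 in all libraries.

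Levels also differed between the WT mice of both batches. Of the 42 genes, 36 (85.7%) had a higher mean in WT of batch 2 than in WT of batch 1, beside 46.1% of all tested genes, and in 19 of them (45.2%) every WT library of batch 2 was above every WT library of batch 1, beside 13.2% of all. The DM mean was above the WT mean of its own batch in 36 genes and above the WT mean of batch 2 in 14. Batch and mice cannot be told apart in this difference, and DM and ApoE4 mice were never in the same batch. Comparisons above were therefore made within a batch or as a difference of 2 such comparisons.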

How the data were processed

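The deposited table holds raw read counts per gene of polyA RNA-seq libraries of mouse hippocampus. According to the methods and the submitters' processing notes, the authors trimmed paired reads of 150 bases with Trimmomatic 0.39, aligned them with STAR 2.7.1a to GENCODE release 24 of the mouse genome with human *APOE* added, and obtained gene counts from HTSeq 0.11.2. The sources used here do not say whether counting used strand, and genes overlapping on opposite strands are uncertain. Coordinates and exonic lengths came from GENCODE release 21 (GRCm38), which matched 55230 of 55471 gene IDs. Every column was assigned to a sample by its label.

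Genes above 1 CPM in at least 3 of 15 libraries were tested, 16171 in all. Upper quartile factors scaled the libraries, and counts were fitted with the quasi-likelihood test of edgeR 4.0.16 (limma 3.58.1, R 4.3.3), batch 1 and batch 2 apart and the difference between the effects of *APOE4* in 1 fit of all libraries. P-values were two-sided, adjusted by Benjamini-Hochberg over all tested genes and called under 0.1. DESeq2 1.42.0 and the robust likelihood ratio test of edgeR, which the study used, were alternatives, with other scalings, filters, dispersions, fits of all libraries, left-out libraries and a replicate block. Heat map values are log2(CPM + 0.1). The fit was also run on simulated counts in which each gene varied on its own. The outcome is not reported here, so that it says nothing about the values above. Intervals are 95% and come from the fit.

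The 46 genes, the gene lists and the tests were chosen with earlier results of these data known. Values in every library are given for genes called by any of the 3 tools, for the 6 genes with the smallest p in each comparison within a batch, and for *Irf7*, *Stat2*, *Irf9*, *Isg15*, *Ifit1*, *Ifit3* and *Ifit3b*. From the other lists up to 3 genes by smallest p are named, and further genes were named after their values were seen. Some results of these lists are not reported here.

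Whether replicate numbers pair libraries was checked by the correlation of deviations from the group means. Libraries of WT and DM with the same number correlated at 0.538, 0.265 and 0.377. For WT and APP-TKI the values were 0.222, -0.378 and 0.292, for APP-TKI and DM 0.238, -0.228 and 0.286, and in batch 2 -0.331, 0.115 and 0.028. Between libraries with different numbers, the values ran from -0.42 to 0.191 for WT and DM and from -0.511 to 0.413 for WT and APP-TKI. They ran from -0.448 to 0.333 for APP-TKI and DM and from -0.418 to 0.406 in batch 2. Only for WT and DM did all same-number values lie above all the others. The main test did not pair libraries, and the replicate block was an alternative. Replicates differed by more than sampling noise, at a chi-square of 4.96 to 27 per degree of freedom.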

Additional observations from a re-analysis of the deposited data

Results flagged for a closer look

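*Ifit1*, *Ifit2* and *Ifit3* were the genes of the 42 for which *APOE4* went with opposite shifts on both backgrounds without overlap of the libraries. Whether or not libraries overlapped, 29 of the 42 were higher in DM and lower in ApoE4, and 3 the reverse. Every DM library was above every APP-TKI library, and every ApoE4 library was below every WT library of its batch. The log2 effect of *APOE4* with minus without *App* mutations was 1.82 for *Ifit1*, 0.64 for *Ifit2* and 1.11 for *Ifit3*, with unadjusted p of 0.000373, 0.00239 and 0.000824 and edgeR adjusted p of 0.51, 0.607 and 0.557. The genes were picked by the lack of overlap in these same libraries. That choice favours a small unadjusted p, so that these p-values add no support of their own. Opposite shifts without overlap, counted in either direction, were found in 3 of the 42 genes (7.14%) and in 105 of all 16171 (0.649%). The 3 genes are neighbours on chromosome 19. DM and ApoE4 libraries come from different batches. For the same difference the median was 0.73 for endothelial and 0.545 for fibroblast markers, and 0.023 for microglia and -0.032 for ependymal markers. In ApoE4 against WT the median was -0.105 for endothelial and -0.33 for fibroblast markers. The part of these cell types in the result was not tested.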

How the results depend on the processing

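The number of the 42 genes called depended on the tool and the filter. The robust likelihood ratio test of edgeR called 1 in DM against WT, 1 in ApoE4 against WT and 3 in the difference between the effects of *APOE4*. Of all genes it called 0.841%, 0.773% and 0.748% there. DESeq2 called 2 in that difference, beside 0.161% of all genes. Without a filter on low counts 2 were called in that difference and 2 in DM against APP-TKI. The share of all genes called without that filter was not counted. No other alternative called any, and the cause was not tested. Leaving out 1 library at a time, the median log2 fold change ran from 0.16 (without WT 1) to 0.31 in DM against WT, from -0.031 (without APP-TKI 2) to 0.098 in APP-TKI against WT, from 0.11 (without DM 1) to 0.3 in DM against APP-TKI, from -0.23 to -0.12 in ApoE4 against WT, and from 0.31 (without DM 1) to 0.53 for the difference. Genes higher in ApoE4 ran from 3 (without WT 2 of batch 2) to 10 (without WT 1 of batch 2). Without the 4 libraries with more long noncoding counts, an alternative chosen after seeing the data, as were the counts of genes higher, the medians were 0.14, 0.087 and 0.21 in DM against WT, DM against APP-TKI and the difference, and 4, 1 and 6 genes had an unadjusted p under 0.05. The share of all genes at that p was counted only for the main test on all libraries. Of 2016 values of single genes under the alternatives, 2005 stayed uncalled as in the main test and 11 were called. Changes of sign were to be counted only for genes called by the main test. None was called there, so that this count says nothing about signs.

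With the replicate block 0 genes were called in every comparison. The medians under the block were 0.26, 0.057, 0.23, -0.16 and 0.43, and 8, 2, 7, 2 and 13 genes had an unadjusted p under 0.05, in DM against WT, APP-TKI against WT, DM against APP-TKI, ApoE4 against WT and the difference. The share of all genes at that p under the block was not counted, so that these counts have no share to be set beside. With 3 libraries a group and low counts for some genes, such as 11 to 81 a library for *Rsad2*, small differences were not detectable.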
